A study of Mus musculus with 2 samples.

Results

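The respiratory chain of the mitochondrial inner membrane is built from subunits of 2 genomes, and the nuclear genome encodes most of them. The genes described here were chosen by name: protein-coding nuclear genes called Nduf (subfamilies a, b, c, s and v with a number), Sdha to Sdhd, Uqcr, Cyc1, Cox4 to Cox8 or Atp5 in the GENCODE annotation. The rule found 85 genes, of 21461 nuclear protein-coding genes and 43346 genes of all kinds with values, spread over 19 chromosomes. A further 10 genes with such names are annotated as processed pseudogenes and are no members. By complex, 35 members belong to complex I, 4 to complex II, 9 to complex III, 20 to complex IV and 17 to complex V, with Ndufa4 and its paralogue Ndufa4l2 placed in complex IV, where the Ndufa4 protein is found. Usmg5 and Ndufab1 encode subunits too, but their names fall outside the rule.

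The RNA came from G1E, immortalized mouse erythroid progenitor cells that the labels give as Gata1-, male and of strain C57BL/6J, and was sequenced as total RNA after removal of ribosomal RNA. There was 1 group, with biological replicates 1 and 2, each made from 100 ng of RNA, and no treatment or second line, so the comparisons possible are between genes and between the 2 libraries. All levels are TPM values, a length-corrected share of each library. They are given as the values of both libraries or as mean ± SD (n = 2), and a gene counted as detected at 1 TPM or more in both libraries. A line is a single genetic background, and the labels do not say whether it is clonal or which part of Gata1 was altered.

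Complexes I and II pass electrons from NADH and succinate to ubiquinone, complex III passes them on to cytochrome c, and complex IV reduces oxygen. Complexes I, III and IV pump protons, and complex V, the ATP synthase, uses the gradient to make ATP. Several complex IV subunits have a widely expressed isoform and a second isoform known from muscle, lung or testis. Maturing erythroid cells make haem partly inside mitochondria and later lose these organelles, while progenitors keep them.

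The libraries held 58094631 (replicate 1) and 55274368 (replicate 2) expected counts on genes, of which the members had 488654 and 506348. These are 1.01% and 1.14% of the counts on nuclear protein-coding genes, and 2.71% and 2.85% of their TPM. Nuclear protein-coding genes took only 18.05% and 16.97% of all TPM, so every TPM below is small against the library total. All 13 erythroid progenitor markers were detected, and none of the 10 muscle, 5 liver, 6 testis germ cell, 4 neuron, 4 lymphoid, 5 macrophage and granulocyte and 4 fibroblast markers was. Gata1 itself had 1862 counts in replicate 1 and 1922 in replicate 2, which, for a gene total, does not check the label.

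Nearly the whole respiratory chain was expressed, and in TPM at high levels. Of the 85 members, 79 (92.9%) were detected, against 38.7% of all nuclear protein-coding genes. All 35 members of complex I, 4 of complex II, 9 of complex III and 17 of complex V were detected, as were 14 of the 20 members of complex IV. The 6 undetected members, Cox4i2, Cox6a2, Cox6b2, Cox7b2, Cox8b and Cox8c, are all isoforms known from restricted tissues. The median member stood at 34.98 ± 0.672 TPM (SD of the 2 library medians). Among detected genes, the members' median was 2.50 ± 0.18 higher on the log2 scale than that of the 8303 detected nuclear protein-coding genes, which was 7 TPM. In all, 13 members were at 100 TPM or more, 55 between 10 and 100, and 11 between 1 and 10. By mean TPM, 63 lay in the top 10% of nuclear protein-coding genes. Most of the distance between the medians depended on the length correction, and without it the log2 distance was 0.39. The detected members' transcripts had a median length of 727 nt, against 2399 nt for detected nuclear protein-coding genes.

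**Figure D1:**
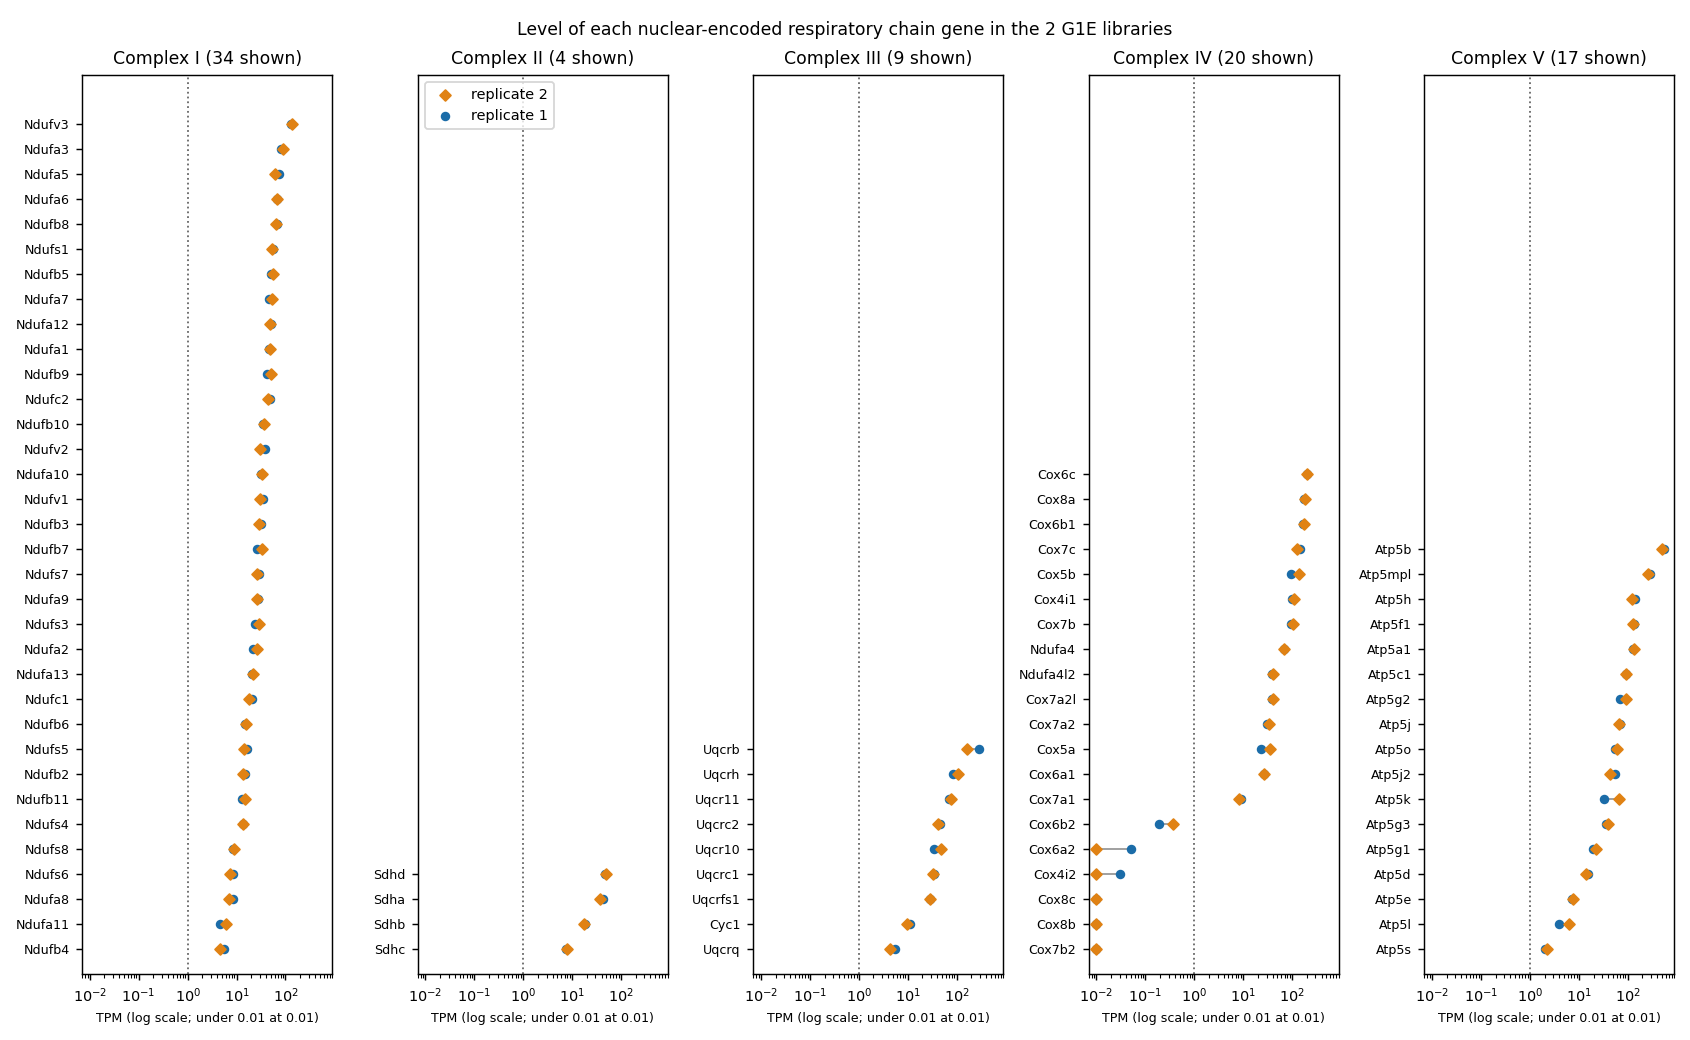
TPM of 84 of the 85 members in replicate 2 (diamonds) and replicate 1 (circles), by complex, on a log axis with a dotted line at 1 TPM; values under 0.01 are drawn at 0.01. Only complex IV has members left of the line, the 6 undetected isoforms, and the 2 libraries lie close together for most genes.

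Complex I, the NADH dehydrogenase, had a median of 30.6 ± 0.926 TPM. Its 7 nuclear core subunits carry the flavin, the iron-sulphur clusters and the quinone site, and their median of 32.2 ± 2.91 TPM was close to the 30.4 ± 1.26 TPM of the 28 accessory subunits. The core subunits were not level with each other. Ndufs1, the largest iron-sulphur subunit, had 55.8 TPM in replicate 1 and 52.2 in replicate 2. Ndufv1, which binds the flavin, had 34.3 and 30.2 TPM, and its partner Ndufv2 had 38.4 and 30.7. Ndufs3 had 24.3 TPM in replicate 1 and 28.8 in replicate 2, Ndufs7 28.9 and 26.4, and Ndufs8, which carries iron-sulphur clusters towards the membrane arm, was the lowest core subunit at 8.32 and 9. Among accessory subunits Ndufv3 led with 132 TPM in replicate 1 and 138 in replicate 2, followed by Ndufa3 with 80.2 and 89.7 and Ndufa5 with 74.4 and 62.3. Transcripts typed protein-coding held 131 and 137 TPM of Ndufv3, 50.8 and 57.4 of Ndufa3, but only 10.8 and 8.32 of Ndufa5. The lowest accessory subunits were Ndufb4 with 5.55 and 4.53 TPM, Ndufa11 with 4.66 and 6.11 and Ndufa8 with 8.32 and 6.98. Accessory subunits spanned a wider range than the core, and none of these genes differed between libraries by 1.5-fold.

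Complex II, succinate dehydrogenase, is wholly nuclear and links the citric acid cycle to the chain. Its flavoprotein Sdha had 42.7 TPM in replicate 1 and 36.4 in replicate 2, and its iron-sulphur subunit Sdhb 18.6 and 17.8. Of the membrane anchors that bind ubiquinone, Sdhd had 47.0 TPM in replicate 1 and 49.0 in replicate 2, and Sdhc had 7.49 and 7.94. Subunits that the complex holds in equal number thus differed several-fold in TPM, and both libraries gave the same order. Counts, with no length correction, gave another order. By counts Sdha led with 15934 in replicate 1 and 14040 in replicate 2, and Sdhb, with 2923 and 2906, was below Sdhc, with 3635 and 3968.

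Complex III, the cytochrome bc1 complex, had a median of 41.3 ± 4.36 TPM. Its catalytic subunits were among the lower members: cytochrome c1 (Cyc1) had 11.2 TPM in replicate 1 and 9.48 in replicate 2, and the Rieske iron-sulphur protein Uqcrfs1 had 29.2 and 28.9. The core proteins Uqcrc1, at 34.8 and 32.3 TPM, and Uqcrc2, at 46.0 and 41.5 TPM, lay above them. Uqcrb, which takes part in ubiquinone binding, was the highest member of the complex and the least even in TPM between libraries, with 165 TPM in replicate 2 and 286 in replicate 1 (log2 difference in TMM-scaled counts -0.53). Uqcrq was the lowest, with 5.63 and 4.45 TPM.

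Complex IV, cytochrome c oxidase, takes its catalytic subunits from the mitochondrial genome, so all of its members here surround that core. Its 14 detected members had a median of 83.8 TPM and the full 20 one of 35.7 ± 2.73 TPM. Cox6c led at 198 TPM in replicate 1 and 202 in replicate 2. Cox5a, which with Cox4 forms the first part of the complex to assemble around the core, had 35.3 TPM in replicate 2 and 22.6 in replicate 1. Cox5b, which binds zinc, had 136 TPM in replicate 2 and 96.6 in replicate 1. Both passed the test between libraries at 1.5-fold, described with the library comparison.

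Complex V, the ATP synthase, had the highest median over all members of a complex, detected or not, 58.0 ± 6.80 TPM. In its catalytic F1 head the alpha and beta subunits alternate, and Atp5a1 (alpha) had 129 TPM in replicate 1 and 131 in replicate 2, while Atp5b (beta) had 551 and 494. The central stalk subunits were lower, with Atp5c1 (gamma) at 90.3 and 93.7 TPM, Atp5d (delta) at 15.2 and 14.4, and Atp5e (epsilon) at 7.20 and 7.60. The 4 members of the peripheral stalk, which holds the head still, had a median of 99.3 ± 4.32 TPM, and among them Atp5o, the link to the head, had 54.7 TPM in replicate 1 and 61.4 in replicate 2. The 4 small membrane subunits ranged from Atp5l at 4.01 and 6.45 TPM to Atp5mpl at 292 and 257. Atp5s, a factor associated with the enzyme rather than a structural subunit, was the lowest member of the group, at 2.02 TPM in replicate 1 and 2.19 in replicate 2.

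The order of the complexes rests partly on the scale and on whether undetected members are counted. Among detected members alone, complex IV had the highest median, 83.8 TPM, against 58.0 TPM for complex V. The values that follow are for all members, detected or not. Relative to the median of all 85 members, complex V was higher by 0.73 and complex III by 0.24 on the log2 scale, complex IV differed by 0.03, and complexes I and II were lower, at -0.19 and -0.28. Without length correction complex II stood at 0.92, with its longer transcripts (median 1863 nt, against 690 nt over all members). Complex III then stood at 0.78 and complex V at 0.61, so that complex V did not lead on that scale, whereas with counts over full length it still did, at 0.71. In replicate 1 alone complex III was at 0.02. For complex IV the sign turned to -0.025 in replicate 1 alone, -0.079 without length correction, -0.20 with Ndufa4 and Ndufa4l2 counted in complex I and -0.10 with the counts of pseudogene copies added.

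Isoform choice in complex IV was mostly of the widely expressed kind. For each pair the log2 ratio of TPM + 1 was set against a limit of 3 replicate SDs of a difference. Of 12 pairs, 9 passed it with the same sign in both libraries. The 12 include the Atp5g pairs of complex V, described below, of which Atp5g2 over Atp5g1 and Atp5g3 over Atp5g2 passed. With 2 libraries no exact test can pass a threshold. Cox4i1, the common form of the subunit that responds to ATP, had 100 TPM in replicate 1 and 111 in replicate 2, against 0.03 TPM from 3 counts and 0 TPM for Cox4i2, known from lung and from hypoxic cells. The ratio of their summed levels was 6324, with an exact 95% Poisson interval from 2164 to 30664 that covers counting error only. Cox6a1 had 26.6 TPM in both libraries, against 4 counts and 1 count for the heart and skeletal muscle form Cox6a2, a ratio of 822 (352 to 2533). Cox6b1 had 170 TPM in replicate 1 and 172 in replicate 2, against 9 and 16 counts for Cox6b2, known from testis, a ratio of 632 (428 to 977). In all 3 pairs the widely expressed gene stood far above any count of its partner.

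The remaining restricted forms were of 2 kinds. Cox8a, the common form, had 175 TPM in replicate 1 and 186 in replicate 2, against 0 counts in both libraries for Cox8b, of heart and skeletal muscle, and Cox8c, of testis. Cox8a was at least 1502-fold higher than Cox8b in replicate 1 and at least 1822-fold in replicate 2, taking 3 counts per library as the limit of a count of 0. Cox8a was likewise at least 2596-fold and 3004-fold higher than Cox8c. Cox7b, at 94.96 TPM in replicate 1 and 105 in replicate 2, was at least 1763-fold and 2085-fold higher than the testis form Cox7b2, which also had 0 counts. Cox7a1 and Ndufa4l2 were the exceptions, both detected.

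The widely expressed Cox7a2 had 30.3 TPM in replicate 1 and 33.2 in replicate 2. Cox7a1 (chromosome 7, 30184144 to 30186078, plus strand, GRCm38), the heart and skeletal muscle form of the same subunit, had 238 counts and 9.11 TPM in replicate 1 and 247 counts and 8.30 TPM in replicate 2. The log2 ratio of TPM + 1 of Cox7a2 over Cox7a1 was 1.76 ± 0.17, past the limit of 1.03. It was 2.47 with counts over full length and 3.34 without length correction. Cox7a2 had 2774 counts in replicate 1 and 3180 in replicate 2, and its transcript is 754 nt long, against 364 nt for Cox7a1. None of 10 muscle markers was detected, and all but Des were near 0 TPM. The TPM of the 10 summed to 1.18 in replicate 1 and 0.63 in replicate 2, nearly all of it Des. Des had 237 counts and 1.04 TPM in replicate 1 and 203 counts and 0.59 TPM in replicate 2. In replicates 1 and 2, Myh7 had 20 and 3 counts, Tnnt2 19 and 14, Myh6 8 and 3, and Acta1 0 and 2. Actc1, Tnnt3 and Mb had 0 counts in both libraries, and Myh1 and Ckm had 0 counts in replicate 1 and 3 counts and 1 count in replicate 2. Cox7a2l, a related factor described as joining complexes III and IV into supercomplexes, had 38.1 TPM in replicate 1 and 41.3 in replicate 2. Whether it has that role in these cells was not tested. Cox7a2l did not differ from Cox7a2 beyond the limit of 1.03 (Cox7a2 over Cox7a2l, log2 -0.31 ± 0.0096). Without length correction it did (-0.98), where the limit was 0.75.

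Ndufa4, an outer subunit of complex IV, had 67.8 TPM in replicate 1 and 67.5 in replicate 2. Ndufa4l2 (chromosome 10, 127514967 to 127517154, plus strand), a paralogue of Ndufa4 known as a target of the hypoxia factor HIF1, had 4878 counts and 38.7 TPM in replicate 1 and 5354 counts and 40.9 TPM in replicate 2. The log2 ratio of Ndufa4 over Ndufa4l2 was 0.75 ± 0.061, within the limit of 1.03, and turned to -0.61 without length correction, where the Ndufa4 transcript counts less for its length (492 nt, against 960 nt). The exons of Ndufa4l2 share 32 bases, 2.92% of their length, with Shmt2 on the opposite strand, a gene at 38.8 TPM in replicate 1 and 40.2 in replicate 2. Whether counting used the strand is not stated, and the part of Shmt2 in the Ndufa4l2 level was not tested. Hif1a RNA, most of whose control is known to act on the protein, stood at 22.9 TPM in replicate 1 and 22.2 in replicate 2.

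The c ring of complex V is encoded by 3 genes whose mature proteins are the same and whose mitochondrial presequences differ. Atp5g2 led with 68.9 TPM in replicate 1 and 91.9 in replicate 2, Atp5g3 had 36.1 and 40.5, and Atp5g1 had 19.95 and 22.36. Atp5g2 exceeded Atp5g1 by 1.86 ± 0.18 on the log2 scale, past the limit of 1.03. Atp5g3 over Atp5g1, at 0.83 ± 0.0030, was within it. Without length correction that ratio was 0.97, past the limit of 0.75 on that scale. Atp5g3 over Atp5g2, at -1.04 ± 0.18, lay just past the limit of 1.03 and was within it in replicate 1 alone (-0.91). It was also within the wider limits that apply with counts over full length (-1.04, limit 1.29) and with a pseudocount of 0.1 (-1.06, limit 1.09).

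**Figure D2:**
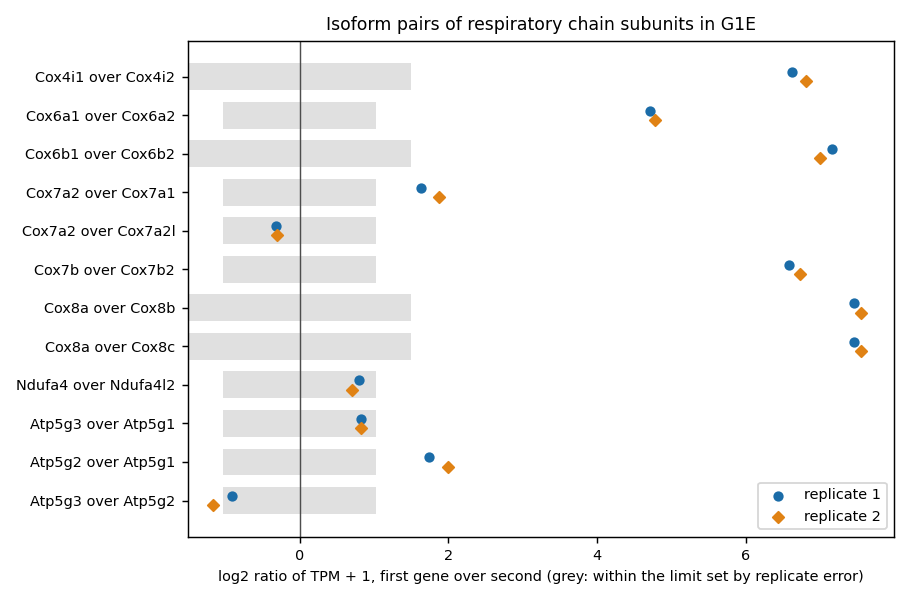
Log2 ratio of TPM + 1 of the first over the second gene of each isoform pair, with 1 point a library and a grey band for the limit set by replicate error. The Cox4, Cox6, Cox7b and Cox8 pairs lie between 4.71 and 7.55, far outside the band, whereas Ndufa4 over Ndufa4l2, Cox7a2 over Cox7a2l and Atp5g3 over Atp5g1 lie inside it.

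In TPM, the level of several members lay mostly on transcripts not typed protein-coding. Of 54 detected members with 2 or more transcripts, 52 had the same leading transcript in both libraries (88.2% over detected nuclear protein-coding genes), the exceptions being Ndufb4 and Ndufv1. In 5 members, among them Atp5b, Atp5j, Cox7c and Ndufa5, the leader was not typed protein-coding in either library, against 7.07% of such genes in the background, and 5 of 54 is close to that share. Atp5b, the highest member, is an example: its leader is the processed transcript Atp5b-206 of 478 nt, with 45.7% of the gene's TPM in replicate 1 and 49.6% in replicate 2. The only coding transcript, Atp5b-201, of 1916 nt, had 147 TPM in replicate 1 and 134 in replicate 2, close to the 127 and 129 TPM of the coding transcripts of Atp5a1. By counts Atp5b-201 led, with 42138 in replicate 1 and 39348 in replicate 2, against 11328 and 11968 for the shorter Atp5b-206. Ndufa5 had 85.0% and 85.6% of its TPM on the processed transcript Ndufa5-204, so that its coding transcripts held 14.6% in replicate 1 and 13.4% in replicate 2. For Cox7c the coding share was 28.6% in replicate 1 and 33.7% in replicate 2, and for Atp5j 47.9% and 39.6%. By counts a coding transcript led in both genes. Cox7c-203 had 2133 and 2385 counts, against 1898 and 1842 for the processed transcript Cox7c-201. Atp5j-201 had 3044 and 2386, against 1664 and 1942 for the retained-intron transcript Atp5j-208. For Ndufa5 the processed transcript led by counts too, with 2577 and 2380.

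**Figure D3:**
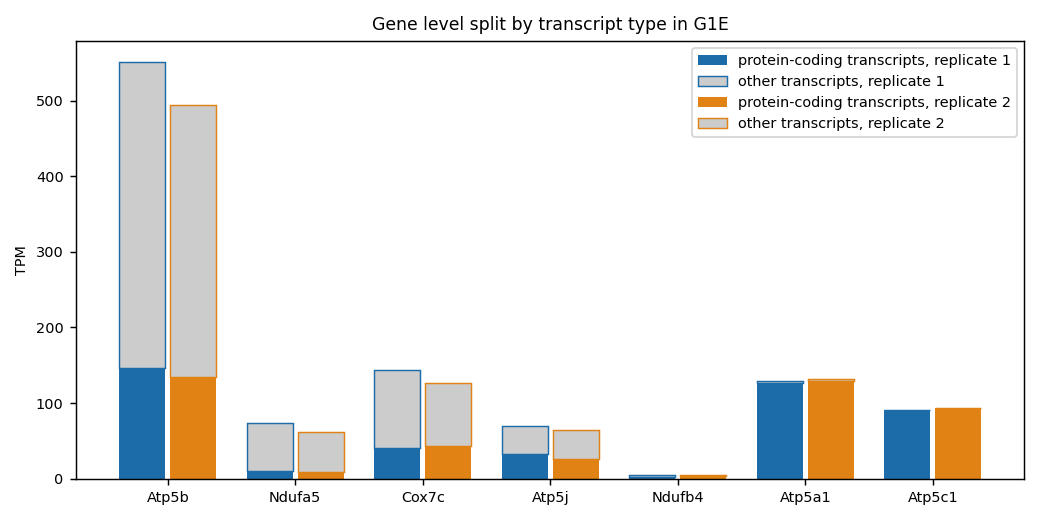
TPM of 7 members split into protein-coding transcripts (coloured) and transcripts of other types (grey) in replicate 1 and replicate 2. Coding transcripts of Atp5b reach 147 and 134 TPM, of the gene's 551 and 494, whereas nearly all of Atp5a1 and Atp5c1 is coding. By counts, which are not drawn, the coding transcript of Atp5b led.

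The median detected member had 99.1% of its TPM on coding transcripts, against 95.8% for detected nuclear protein-coding genes. Ndufv3, an accessory subunit of the flavin module, showed a choice between coding transcripts: the short Ndufv3-202 of 485 nt held 91.2% of its TPM in replicate 1 and 91.4% in replicate 2, and the long Ndufv3-201 of 1537 nt held 7.48% and 7.09%. Such shares are estimates, since short transcripts overlap longer ones of the same gene.

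Annotated pseudogene copies of some members were assigned reads. Retrocopies are known to be frequent for respiratory chain genes, and 60 annotated pseudogenes matched the coding transcripts of 32 members at 90% identity or more over at least 80% of the copy. Of these copies 12 were at 1 TPM or more in both libraries and 22 had 0 counts. In both libraries 4 copies stood above their parent by TPM, but 2 by counts. Whether these reads came from the copies or from the parents was not tested. Over all members, copies held only 2.34% of the joint counts in replicate 1 and 2.58% in replicate 2. For 7 members they held more than 10%.

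Atp5l, subunit g of complex V, was the extreme case. It had 202 counts in replicate 1 and 351 in replicate 2, whereas its copy Gm10221 (chromosome 5, 24581554 to 24581862, minus strand), identical over 309 nt, had 3121 and 3555, and 92.4% of the joint counts lay on copies. Atp5l was also the only member marked as sharing reads (posterior SD of its count, by the authors, 6.83% of the mean in replicate 2 and 9.06% in replicate 1), as were 0.566% of detected nuclear protein-coding genes. With the copies' counts added, its level was 66.2 TPM in replicate 1 and 72.0 in replicate 2, against 4.01 and 6.45 for the gene alone. Ndufb4, the lowest complex I member by the deposited values, had 86.4% of the joint counts on copies, almost all on Ndufb4c (chromosome 15, 73809507 to 73809896, minus strand), identical over 390 nt and at 86.3 TPM in replicate 1 and 98.4 in replicate 2. The low levels of Atp5l and Ndufb4 are therefore uncertain.

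The share of copies was 48.5% for Ndufs5, 31.0% for Ndufa12, 21.2% for Cox7c, 13.01% for Atp5g2 and 12.1% for Cox7a2l. Cox7c and its copy Gm12338 (chromosome 11, 75599763 to 75599954, minus strand) are an example of identical letters. The copy is the 192 bases printed here, and the coding transcript of Cox7c (GENCODE M21) holds the same bases with no difference:
Cox7c and Gm12338: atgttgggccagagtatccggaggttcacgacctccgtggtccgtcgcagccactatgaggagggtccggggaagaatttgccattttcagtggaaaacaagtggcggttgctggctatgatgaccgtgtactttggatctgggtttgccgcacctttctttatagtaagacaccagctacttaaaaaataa
Gm12338 had 878 counts and 263 TPM in replicate 1 and 1433 counts and 282 TPM in replicate 2, and Cox7c had 4235 counts and 144 TPM in replicate 1 and 4436 counts and 127 TPM in replicate 2. The copy is no longer than the mean fragment, so its TPM divides the reads by a very small effective length, and the counts put Cox7c first. Ndufs5, an accessory subunit of complex I, and its copy BC002163 (chromosome 16, 42955631 to 42955949, plus strand) differ at 2 bases of the 319 nt aligned, and a read that lies within that stretch can be told apart only where it covers them. Both lie in this stretch of 55 bases, in capitals:
BC002163: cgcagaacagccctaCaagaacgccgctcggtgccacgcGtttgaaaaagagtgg
Ndufs5: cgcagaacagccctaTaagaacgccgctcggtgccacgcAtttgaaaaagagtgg
BC002163 had 41.3 TPM in replicate 1 and 34.3 in replicate 2, above Ndufs5 at 16.2 and 14.0, whereas by counts Ndufs5 was first, with 864 in replicate 1 and 794 in replicate 2, against 788 and 771 for the copy.

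**Figure D4:**
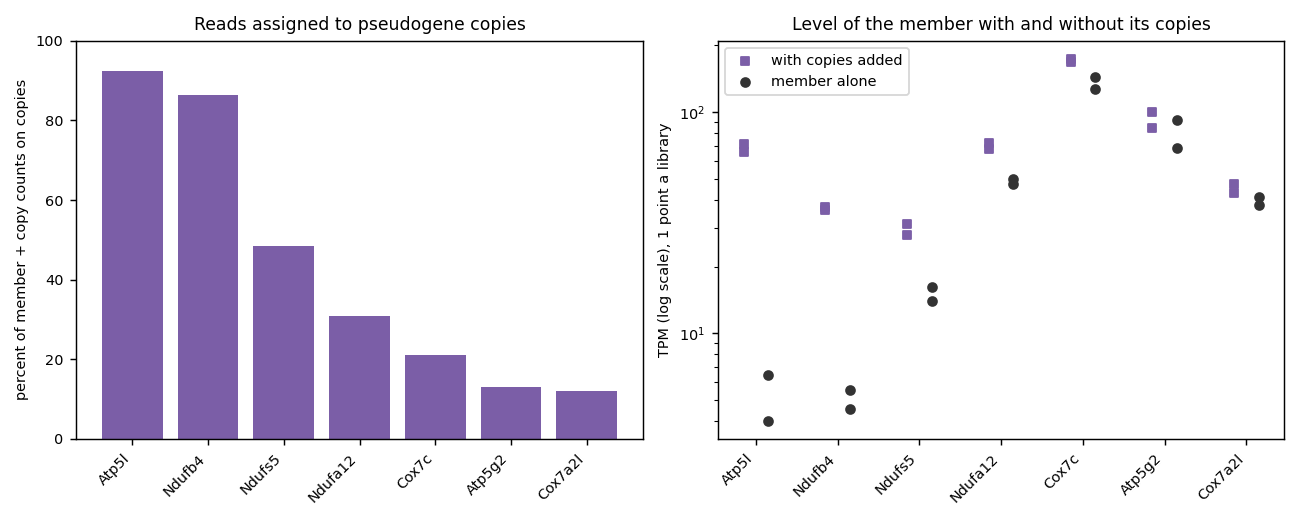
Left, percent of the joint counts of a member and its pseudogene copies that lay on copies, for the 7 members above 10%; right, TPM of each of these members with the copies' counts added (squares) and alone (circles), with 1 point a library, on a log axis. Adding copies lifts Atp5l to 66.2 and 72.0 TPM, against 4.01 and 6.45 alone, and changes Cox7a2l little.

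Most assembly factors had lower levels than the subunits, and most subunits encoded in mitochondria had higher ones. Of 52 assembly factors and inhibitors listed, 51 had values and 48 were detected, with a median of 4.99 ± 0.0283 TPM. The exceptions below the threshold were Sdhaf3, at 0.93 and 1.13 TPM, Lyrm7, at 0.44 and 0.05, and Pet117, at 0. The copper chaperone Cox17, at 161 TPM in replicate 1 and 145 in replicate 2, and Atpif1, the inhibitor of complex V, at 186 and 151, stood as high as the subunits. The 77 genes of mitochondrial ribosomal proteins, all detected, had a median of 13.6 ± 0.467 TPM. Cytochrome c (Cycs) had 15.1 TPM in replicate 1 and 11.2 in replicate 2, while its testis form Cyct had 0 and 0.01. Of 16 regulators 14 were detected. The co-activators Ppargc1a, at 0.05 and 0 TPM, and Ppargc1b, at 0.72 and 0.59, were not, whereas Nrf1, at 14.6 and 13.8, Gabpa, at 14.92 and 12.01, and Yy1, at 17.7 and 15.5, were. Of the 13 subunits encoded in mitochondria 12 were detected. The undetected mt-Nd4l had 110 counts and 6.97 TPM in replicate 1 and 0 in replicate 2, and was marked as sharing reads. So were mt-Nd3, mt-Co2, mt-Co3 and mt-Atp6. The median of the 13 was 101 ± 45.9 TPM, and the highest, mt-Co1, had 3157 TPM in replicate 1 and 2118 in replicate 2.

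Promoter windows (250 bases before to 50 after the annotated start, RefSeq, GRCm38.p6) were found for 66 members and searched for the letters of 3 motifs on both strands. GCATGCGC, of NRF1, was in 15.9% of the 63 detected members' windows, against 7.30% of 6675 detected nuclear protein-coding genes and 3.05% of all 27025 genes. AAGATGGCG, of YY1, was in 11.1%, against 4.78% and 1.64%. CCGGAAG, of ETS factors such as GABPA, was in 25.4%, against 25.9% and 9.93%, so that only the background of all genes was lower. Members with any match had a lower median level, 27.6 TPM (n = 27), than those with none, 38.3 TPM (n = 39). These are matches of letters, not sites, and no test was made.

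**Figure D5:**
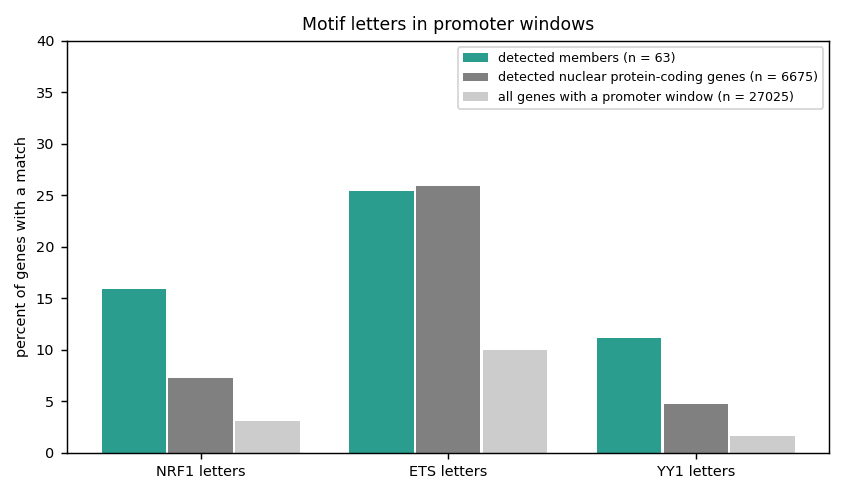
Percent of genes whose promoter window holds the letters of each motif, for detected members, detected nuclear protein-coding genes and all genes with a window. NRF1 and YY1 letters are in 15.9% and 11.1% of the members, above both other bars, and ETS letters in 25.4%, close to the 25.9% of detected nuclear protein-coding genes.

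Examples show the letters in place. Of 7 members with YY1 letters, 6 carry them 22 to 35 bases after the start, as in Ndufs7, and Atp5j carries them before it. Cox6a1 has NRF1 letters on both strands, which overlap in 1 run, and an ETS match, and Cox8a has 2 ETS matches. Cox8b, at 0 counts, has none of the 3 and 2 CpG pairs, against 19 in Cox8a. This pair does not stand for all members. Cox7b, at a mean of 99.85 TPM, also has none of the 3, and 5 CpG pairs. The undetected Cox6b2 and Cox7b2 have 10 each. In the lines below, capitals mark the matches, on either strand. The windows are chr10:80249199-80249498 (plus strand) for Ndufs7, chr5:115348909-115349208 (minus strand) for Cox6a1, chr19:7217567-7217866 (minus strand) for Cox8a and chr7:140900397-140900696 (minus strand) for Cox8b.
Ndufs7: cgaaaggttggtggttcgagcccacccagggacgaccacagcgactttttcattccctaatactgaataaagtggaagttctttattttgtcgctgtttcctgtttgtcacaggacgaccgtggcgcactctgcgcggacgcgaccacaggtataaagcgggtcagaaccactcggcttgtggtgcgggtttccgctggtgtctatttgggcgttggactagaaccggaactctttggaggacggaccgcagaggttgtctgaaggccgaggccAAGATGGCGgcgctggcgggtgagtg
Cox6a1: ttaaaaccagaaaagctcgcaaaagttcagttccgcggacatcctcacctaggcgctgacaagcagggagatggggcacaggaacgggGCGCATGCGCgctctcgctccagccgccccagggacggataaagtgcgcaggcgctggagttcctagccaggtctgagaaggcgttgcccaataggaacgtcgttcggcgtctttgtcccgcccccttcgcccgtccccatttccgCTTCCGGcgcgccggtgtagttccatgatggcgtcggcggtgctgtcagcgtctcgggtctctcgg
Cox8a: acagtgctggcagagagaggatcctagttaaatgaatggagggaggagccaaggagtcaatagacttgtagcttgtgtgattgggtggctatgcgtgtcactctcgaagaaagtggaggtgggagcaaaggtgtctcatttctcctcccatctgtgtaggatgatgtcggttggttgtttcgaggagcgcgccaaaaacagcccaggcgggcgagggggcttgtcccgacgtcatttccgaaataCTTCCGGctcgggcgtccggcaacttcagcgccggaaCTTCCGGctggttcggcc
Cox8b: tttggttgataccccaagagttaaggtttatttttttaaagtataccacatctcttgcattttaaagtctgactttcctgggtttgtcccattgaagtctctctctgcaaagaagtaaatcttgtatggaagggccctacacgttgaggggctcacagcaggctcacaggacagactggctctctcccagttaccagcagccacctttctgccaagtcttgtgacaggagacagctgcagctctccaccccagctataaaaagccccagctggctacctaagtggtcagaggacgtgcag

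Most members had nearly the same level in both libraries. By a two-sided exact binomial test of rounded counts with Benjamini-Hochberg adjustment over all genes, which knows counting error only, 1 of 80 members tested differed at 2-fold or more. The background was 4.11% of all genes higher and 9.83% lower in replicate 2, and 0.325% and 0.0482% of detected nuclear protein-coding genes. Atp5k (chromosome 5, 108433244 to 108434448, minus strand), subunit e of complex V, had 2036 counts and 65.1 TPM in replicate 2, against 887 counts and 32.3 TPM in replicate 1 (log2 1.36, adjusted p = 4.59e-131, exact binomial test). At 1.5-fold, 7 members were higher in replicate 2 and none lower: Atp5k, Atp5l, Atp5g2, Cox5a, Cox5b, Uqcr10 and Uqcrh, with log2 differences of 0.61 to 1.36. With the counts of copies added, Atp5g2 (0.48) and Atp5l (0.39) were below 1.5-fold and the other 5 did not. The background at 1.5-fold was 2.3% higher and 0.169% lower among detected nuclear protein-coding genes, and 6.43% higher and 10.8% lower among all genes.

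Most other differences were small and of 1 sign. The median log2 difference of replicate 2 over replicate 1, in counts scaled by TMM, was 0.26 over the 80 members and positive in 74, against 0.06 over detected nuclear protein-coding genes, of which 61.6% were positive. It was 0.17 with library totals in place of TMM factors, and 0.17 in TPM relative to the median detected nuclear protein-coding gene. The 875 such genes under 1000 nt had a median of 0.23, and 83.0% of them were positive. Of the 79 detected members, 57 are under 1000 nt, with a median of 0.29, and the other 22 had 0.18. The mean fragment was shorter in replicate 2, 192.5 nt against 213.2 nt in replicate 1, and its part in the difference was not tested. In TPM, which takes account of fragment length, 43 members were higher in replicate 2 and 36 lower. The members' median log2 difference in TPM was 0.03, against -0.14 over detected nuclear protein-coding genes and 0.0043 over those under 1000 nt. The median member varied by 6.93% (SD over mean) between libraries, against 9.31% for detected nuclear protein-coding genes. In bulk RNA, fewer cells of a kind and less RNA per cell cannot be told apart.

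Exons of 26 members overlap those of a gene on the opposite strand in GENCODE M21, and the largest member share was 39.0% for Ndufb6, which overlaps Smim27. Beside Ndufa4l2 these include Cox4i1 with Emc8 (9.94% of its exon bases), Atp5j with Gabpa (12.7%) and Atp5a1 with Haus1 (4.11%), whose levels are uncertain by whatever share of reads came from the partner. The partners named lay at 7.69 and 7.08 TPM for Emc8, 14.92 and 12.01 for Gabpa, 9.98 and 8.27 for Haus1 and 1.69 and 2.29 for Smim27, in replicates 1 and 2.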

How the data were processed

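Total RNA of G1E was measured in 2 libraries of 1 group. For every library the authors deposited a table of genes and a table of transcripts, without pooling. Per the file headers these hold an expected count (estimated reads, shared reads divided among genes), a TPM by effective length, posterior means of both, a posterior SD of the count and an interval of the TPM, listed as scores in the deposited tables, and the percent of the gene's TPM in each transcript. The deposited read-me texts name mm10 and GENCODE M4. Not given in the sources used here: the aligner, the quantifier, their versions and the strand setting of the counting. Rows that name no gene (26345 in each library) held 20 and 37.6 counts in replicates 1 and 2, which is 3.44e-05% and 6.80e-05% of all counts, and stayed out.

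Names, types and coordinates came from GENCODE M21 on GRCm38, matched on the gene identifier without version (42462 of 43346 genes, all 85 members). The members and lists were chosen with earlier results of these data known. Values in both libraries are printed for the core and catalytic subunits, the isoform genes, the highest and lowest members, members under 1 TPM and members called between libraries; all others stand as ranges and counts. The values of 1 member are not reported here, though counts and medians include it.

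Levels are the deposited TPM. Expected counts were rounded, scaled by TMM (edgeR 4.0.16, R 4.3.3; DESeq2 1.42.0 size factors as an alternative) and compared by the exact binomial test over genes with 10 or more counts in the 2 libraries together, at an adjusted p of 0.05 and 2-fold. edgeR's quasi-likelihood test needs a second group and was not run. The test was tried on simulated counts that held counting error only. That trial cannot show how the test fares with other variation between libraries. The limit for an isoform pair was 3 times the SD of a difference, from the pooled replicate SD of log2(TPM + 1) over detected genes of like level. It was computed anew for each other scale or pseudocount. Reads were called shared for a gene with a posterior SD above 5% of the posterior mean. Pseudogenes were matched with BLAST+ 2.17.0 on GENCODE M21 transcripts. A count of 0 allows 3 counts, worth 0.0516 CPM (replicate 1) and 0.0543 CPM (replicate 2), and this covers only the counting error. Other steps ran in Python 3.11.15 (pandas 2.3.3, numpy 2.4.6, scipy 1.17.1); figures were drawn with matplotlib 3.10.9.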

Additional observations from a re-analysis of the deposited data

How the results depend on the processing

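The distance of the members' median from that of detected nuclear protein-coding genes was 2.50 ± 0.18 on the log2 scale. It was 2.19 with counts over full length, 0.39 in CPM with no length correction and 7.37 with no filter on low values, where most genes of the background are near 0; leaving out 1 library gave 2.38 to 2.63. The 1 member that differed between libraries became 7 at 1.5-fold and 5 at 1.5-fold with copies added. The count of detected members was 79 without either replicate, and 74 to 80 under the other thresholds and scalings; the isoform pairs past the limit numbered 8 to 9 without a replicate, and 8 to 11 otherwise. Signs turned for complex II in CPM (0.92), for complex IV in CPM (-0.079), without replicate 2 (-0.025, against 0.091 without replicate 1), with copies added (-0.10) and with Ndufa4 and Ndufa4l2 in complex I (-0.20), and for Ndufa4 over Ndufa4l2 in CPM (-0.61). Of 168 alternative values these 6 changed sign, and 145 kept their sign and side of the limit or, where there is none, moved by no more than the replicate spread or 1.5-fold. The coding-transcript, Ndufa4 and copies alternatives were chosen after seeing the data. The cause of the changes between settings was not tested. No paired analysis was possible because the labels give 1 group.

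With 2 libraries, an SD rests on 1 difference, and levels of short transcripts depend on the estimated effective length. Strand was not stated, members with near-identical copies are uncertain, and RNA levels say nothing of protein or of assembled complexes.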
